A study of Mus musculus with 3 samples.

Results

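Genes named for work in meiosis and sperm formation went both ways in this comparison of mouse spleen RNA with a reference RNA, and most ratios were small. A symbol rule picked Spata, Tekt, Odf, Tsga, Tssk, Prm, Tnp, Syce, Sycp, Ropn, Tex, Spag, Dnah, Dnal, Akap, Meig and Spink genes plus Hspa1l from the array's probe annotation. It found 70 genes, of which 61 had a probe with a value on all 3 arrays, out of 6077 genes measured in this way. Of the 61 genes, 23 missed the test, 20 were positive (32.8%, beside 33.2% of all genes) and 18 negative (29.5%, beside 37.1%). The extremes were Syce1, a synaptonemal complex gene, with a mean log ratio of -3.14 ± 0.046 (SD, n = 3), and Tsga13, a testis-specific gene, with 1.40 ± 0.29 (SD, n = 3).

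Each of the 3 arrays held spleen total RNA bought from Clontech, labelled red (Cyanine-5), and Universal Mouse Reference RNA (UMRR) bought from Stratagene, a commercial pool of mouse cell line RNA, labelled green (Cyanine-3). The labels give no strain, age, sex or treatment, and name 1 product for each RNA, so p-values measure only the spread between arrays, which may be technical. The values are log ratios as the authors deposited them, with the log base and the numerator not stated, and a value of exactly 0 was read as no measurement. A gene with a positive ratio was likely higher in spleen. That reading rests on red being the usual numerator and on the signs of lineage genes. All 6 measured B cell genes and 4 of 5 T cell genes were positive (medians 2.97 and 2.24), and all 5 fibroblast and matrix genes were negative (median -2.20). The remaining T cell gene, Cd3d, went the other way and passed the test as negative (mean -0.85). The sample titles put the reference first, which could mean the opposite order, and since no dye swap is labelled, the effects of dye and of RNA source cannot be told apart. A value near 0 says that both dyes gave a similar signal, and not whether the gene was expressed, since no intensities were analysed here.

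Meiosis is the pair of divisions that leaves germ cells with a single chromosome set. During it the synaptonemal complex, a protein ladder, holds paired chromosomes together while they recombine. Spermatids then replace histones by transition proteins and protamines, and build a tail around an axoneme, a ring of microtubules moved by dynein. Spleen makes no sperm, and several families of the rule, Akap and many Tex genes among them, also serve other tissues. The classes below follow the symbols, and the name of a gene does not show that germ cells were present.

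The promoters of 4 genes are shown as a description: the neighbouring protamine genes Prm1 and Prm2, the transition protein gene Tnp1, and Syce1. Whether the promoters bear on the ratios was not tested. Each line gives the 250 bases before the annotated start, 5′ to 3′ on the gene's strand, from RefSeq on GRCm38.p6. Capitals mark exact matches to TGACG, TGANGTCA or TATAAA on either strand, and near matches are left unmarked. The first pair are the core and a relaxed form of the cyclic AMP response element, which the spermatid activator Crem binds, and the last is the TATA box. The windows are chr16:10796824-10797073, minus strand, for Prm1, chr16:10792106-10792355, minus strand, for Prm2, chr1:73015900-73016149, minus strand, for Tnp1, and chr7:140787855-140788104, minus strand, for Syce1.
Prm1: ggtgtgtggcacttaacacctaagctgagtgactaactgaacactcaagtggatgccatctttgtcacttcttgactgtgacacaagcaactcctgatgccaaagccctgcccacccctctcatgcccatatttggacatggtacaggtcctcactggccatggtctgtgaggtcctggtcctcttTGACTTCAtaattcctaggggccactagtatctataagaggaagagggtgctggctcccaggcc
Prm2: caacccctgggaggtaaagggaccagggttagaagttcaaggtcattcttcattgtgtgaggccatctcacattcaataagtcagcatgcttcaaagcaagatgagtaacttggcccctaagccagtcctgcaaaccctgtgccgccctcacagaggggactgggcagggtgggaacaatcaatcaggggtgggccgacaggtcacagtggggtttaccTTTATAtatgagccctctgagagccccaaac
Tnp1: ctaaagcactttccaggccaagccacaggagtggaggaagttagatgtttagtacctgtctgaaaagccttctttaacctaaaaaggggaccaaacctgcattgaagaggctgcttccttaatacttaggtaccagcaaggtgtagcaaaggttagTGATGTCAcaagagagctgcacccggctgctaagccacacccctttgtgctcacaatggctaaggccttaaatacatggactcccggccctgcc
Syce1: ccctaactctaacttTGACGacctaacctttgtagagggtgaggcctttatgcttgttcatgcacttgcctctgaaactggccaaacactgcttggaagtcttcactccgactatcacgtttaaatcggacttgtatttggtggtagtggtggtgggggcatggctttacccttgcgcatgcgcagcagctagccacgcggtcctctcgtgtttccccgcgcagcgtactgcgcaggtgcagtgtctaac

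Prm1 held TGANGTCA 64 bases before its start, read on the opposite strand and printed as TGACTTCA, and Tnp1 held it 94 bases before. Prm2 held TATAAA 31 bases before, also on the opposite strand and printed as TTTATA, and Syce1 held TGACG 235 bases before. The relaxed motif was picked after these sequences had been read. Of the 52 measured genes with a RefSeq promoter, 13 (25%) held TGANGTCA in a window, beside 8.55% of 27025 genes with a promoter. These 13 include Prm1 and Tnp1, whose sequences had been read, so the share is no test of the set. The 27025 genes are not limited to those measured on the arrays. Among genes with 1 annotated window the shares were 28.2% of 39 and 7.80% of 22862. The 13 genes were spread over the outcomes: 4 of 19 positive genes, 3 of 16 negative genes and 6 of 17 that did not pass. TGACG was in 15.4% of these promoters and 19.8% of all, TATAAA in 7.69% and 14.3%, the E-box CACGTG in 9.62% and 6.86%, and the E2F letters TTCCCGC in 7.69% and 4.38%. The full element TGACGTCA was in 1 promoter, that of Spag6l (1.92% and 1.77%), and also counts for TGACG and TGANGTCA. A match is a description of these letters.

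Over the whole set, 62.3% of the genes passed the test (38 of 61, limma, Benjamini-Hochberg adjusted p under 0.05 over all genes), against 70.3% of all 6077 genes. By direction, 32.8% were positive beside 33.2% of all genes, and 29.5% negative beside 37.1%. These shares lie near or below the background, so the count of calls is no result about the set. The median log ratio was 0.025 here and -0.033 over all genes. Sizes were modest: 17 of the 61 (27.9%) had an absolute mean of at least 0.5, beside 37.4% of all genes, and 5 (8.20%) reached 1, beside 14.2%. Differences between these shares were not tested. Between pairs of arrays the 61 genes correlated with Pearson's r of 0.921 to 0.935, and 0.868 to 0.899 without Syce1, a description across genes that are not independent replicates.

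**Figure D1:**
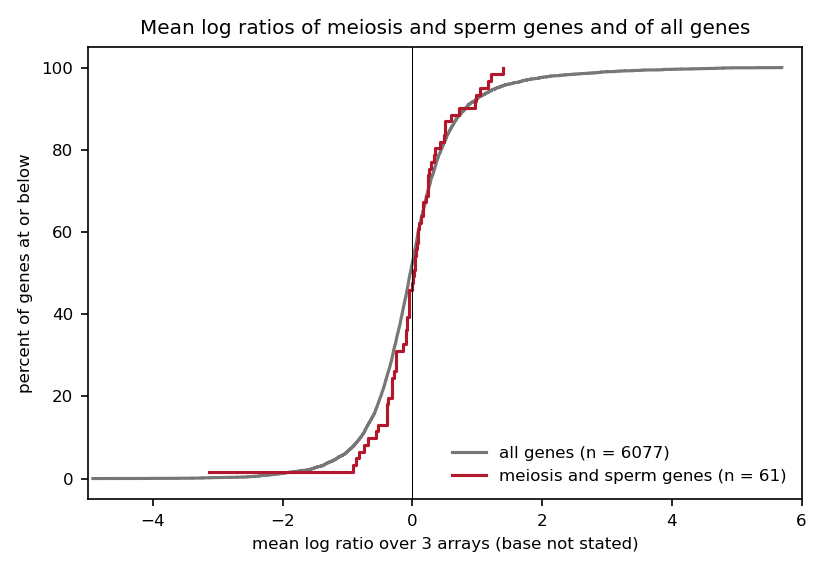
Cumulative share of genes (vertical axis, percent) against the mean log ratio over 3 arrays (horizontal axis, log base not stated) for the 61 meiosis and sperm genes and for all 6077 measured genes. Both curves cross near 0, with medians of 0.025 and -0.033, and the lone step at -3.14 is Syce1.

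Among the Syce and Sycp genes of the synaptonemal complex, Syce1, Syce2 and Sycp1 were negative and Syce3 did not pass, and Syce1 stood far from the others. Syce1 encodes a protein of the central element, the middle rail of the ladder. Its log ratio was -3.09 on array 1, -3.18 on array 2 and -3.14 on array 3, an 8.82-fold difference if the base is 2 and 23.1-fold if the logs are natural (limma adjusted p = 5.76e-08). The 3 arrays lay close together, and 0.181% of all genes had a lower mean. Syce2, also of the central element, had -0.94, -0.96 and -0.83, with a mean of -0.91 ± 0.069 (SD, n = 3; adjusted p = 1.70e-05). Sycp1 forms the rungs that join the central element to the chromosome axes, and was at -0.33, -0.24 and -0.36, with a mean of -0.31 (adjusted p = 0.0038). Syce3, the third central element gene measured, was at -0.14, 0.21 and -0.22 and did not pass (mean -0.051, adjusted p = 0.643). Tex12, the partner that forms fibres with Syce2, was positive, with a mean of 0.28 ± 0.069 (SD, n = 3; adjusted p = 0.00591). Of its 3 probes, 2 passed at 0.35 and 0.49 and probe 629 did not, at 0.011, and without the 2 probes numbered under 1000 the mean was 0.49. The genes of this one structure were thus spread from -3.14 to 0.28, each on 1 probe except Tex12.

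Meig1, a gene first found by its expression in meiosis and needed for sperm formation, was the positive gene of the meiosis class. It had 1.42 on array 1, 1.44 on array 2 and 0.63 on array 3, with a mean of 1.16 ± 0.46 (SD, n = 3; adjusted p = 4.34e-04). Array 3 was the low one, for both of its probes: probe 723 had 1.22, 1.33 and 0.51, and probe 5453 had 1.63, 1.56 and 0.75. The call ended with values of 0 kept as measurements (adjusted p = 0.0577) and without moderation, the sharing of variance between genes (0.0844). Neither probe holds a 0, so keeping 0 left the mean of Meig1 at 1.16 and changed only the shared variance and the adjustment.

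Genes that pack sperm chromatin gave 2 positive genes of 3, beside 33.2% of all genes positive. Prm1 replaces histones in the sperm head, and its log ratio was 1.07, 1.00 and 0.84 on arrays 1 to 3, with a mean of 0.97 ± 0.12 (SD, n = 3; adjusted p = 1.93e-05). It rests on 3 probes, with means of 1.13, 0.96 and 0.82, and every probe passed. Tnp1, a transition protein that precedes the protamines, had 1.20, 1.13 and 0.79, with a mean of 1.04 ± 0.22 (SD, n = 3; adjusted p = 4.96e-05). For both genes array 3 was lowest, and all values lay above 0.7. Prm2, with no coding gene between it and Prm1 on the chromosome, was at 0.22, 0.14 and 0.12 on its 1 probe. Its mean of 0.16 ± 0.056 (SD, n = 3) did not pass (adjusted p = 0.0531). Prm2 passed with each array centred on its median (0.19, adjusted p = 0.0299), with 0 kept (0.0455) and without the probes numbered under 1000 (0.0460). As measured, it lay below Prm1 on every array.

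**Figure D2:**
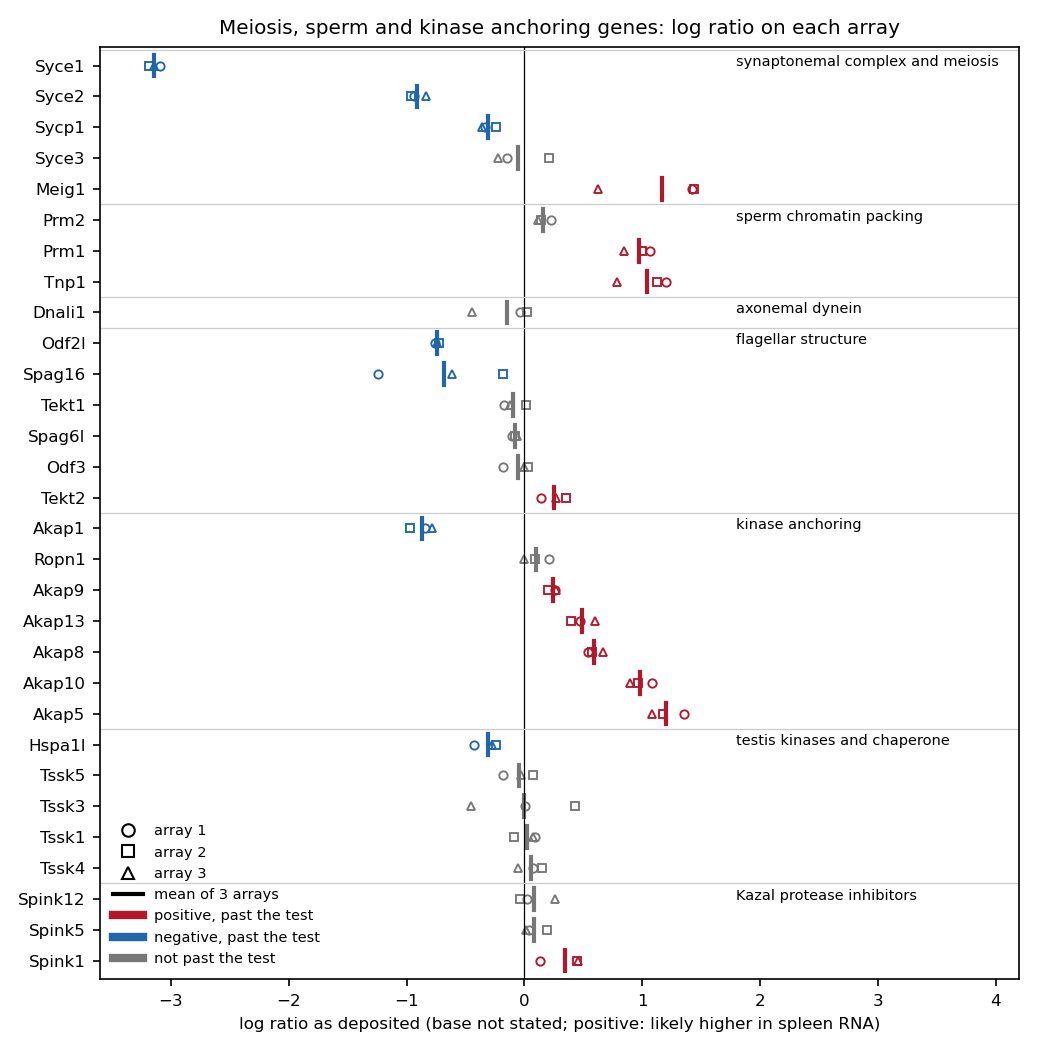
Log ratios (horizontal axis, base not stated) of the 30 genes outside the Spata, Tsga and Tex families, grouped by role, with a circle, square and triangle for arrays 1, 2 and 3 and a bar for their mean. Colour gives the outcome of the test, and Syce1 stands alone near -3.14 while Meig1, Tnp1, Prm1, Akap10 and Akap5 lie near 1.

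Genes of the sperm tail were mostly close to 0. Of 6 Tekt, Odf and Spag genes, 3 missed the test, 2 were negative and 1 was positive, and their median was -0.088. Over all genes 37.1% were negative and 33.2% positive. Odf2l, a centrosomal relative of an outer dense fibre protein, had -0.76, -0.72 and -0.74, with a mean of -0.74 ± 0.020 (SD, n = 3; adjusted p = 3.63e-05). Spag16, of the axoneme's central pair, had -1.24, -0.18 and -0.61, and its mean of -0.68 ± 0.53 (SD, n = 3) passed narrowly (adjusted p = 0.0108). These arrays disagreed widely: without array 1 the mean was -0.40, the call ended with 0 kept (adjusted p = 0.185), without moderation (0.207) and with a trend, the running median over probes of neighbouring number, removed (0.0566), and its 1 probe has a number under 1000. Tekt2, a tektin filament of the axonemal doublets, was at 0.14, 0.36 and 0.27 (mean 0.25, adjusted p = 0.0136), a call that ended without array 3 (0.0541), with 0 kept (0.0655) and without moderation (0.0927). Tekt1 had a mean of -0.093, Spag6l of -0.083 and Odf3 of -0.054, and they did not pass. Tekt1 turned positive and passed with the trend removed (0.30, adjusted p = 0.00349), and Spag6l passed with 0 kept (adjusted p = 0.0300) and without moderation (0.0472). Dnali1, a light intermediate chain of the inner dynein arm, was at -0.034, 0.023 and -0.44 and did not pass (mean -0.15, adjusted p = 0.210). The heavy chain genes Dnah2 (0.57 and 0.89 on arrays 1 and 2) and Dnah17 (-0.20 and 0.15 on arrays 2 and 3) lacked a value on 1 array.

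Of 7 kinase anchoring genes, 5 were positive, 1 was negative and 1 did not pass, beside 33.2% of all genes positive (median 0.49). The 5 include Akap13, whose probes have opposite signs, and without it 4 of 6 were positive, with a median of 0.42. A-kinase anchoring proteins tether protein kinase A to places in the cell, in sperm and elsewhere. Akap5, which anchors it at the plasma membrane, had 1.35, 1.17 and 1.09, with a mean of 1.21 ± 0.14 (SD, n = 3; adjusted p = 8.31e-06). Akap10 had 1.08, 0.96 and 0.90 (mean 0.98, adjusted p = 1.42e-05) on 1 of its probes. A second Akap10 probe was at 0 on every array, and with 0 kept the mean was 0.49. The nuclear anchor Akap8 had 0.54, 0.57 and 0.67 (mean 0.59), and Akap9, at the Golgi and centrosome, had a mean of 0.24 ± 0.037 (SD, n = 3). Akap1, which anchors the kinase to mitochondria, was the negative gene, at -0.84, -0.97 and -0.78 (mean -0.87 ± 0.099, SD, n = 3; adjusted p = 2.84e-05), though -0.32 with the trend removed. The call of Akap9 ended without array 1 (0.0603), without array 3 (0.0745) and at a threshold of 0.01. Ropn1, ropporin of the sperm fibrous sheath, did not pass, with a mean of 0.097.

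Akap13, another anchor of the family, had a mean of 0.49 (0.21 with the trend removed) that averages probes of opposite sign. Its probe 11639 had -0.44, -0.63 and -0.41 (mean -0.49, adjusted p = 0.00104 over all probes), and its probe 16022 had 1.38, 1.42 and 1.60 (mean 1.47, adjusted p = 5.58e-06). Tex9 showed the same, with probe 7100 at -0.15, -0.23 and -0.28 (mean -0.22) and probe 13874 at 1.13, 1.06 and 1.07 (mean 1.09), so that its gene mean of 0.43 stands for neither probe. A further probe of each gene, 2863 of Akap13 and 10506 of Tex9, was at 0 on every array. The mean of each of these genes has no single direction, and without both 18 of 59 genes of the set were positive. Of 14 genes with 2 or more measured probes, these 2 had probes called in opposite directions, on an array where 68.3% of all probes passed, beside 139 of 1491 genes (9.32%) on the whole array. In 5 of the 14 every probe passed with the same sign, Meig1, Prm1, Spata6, Spata24 and Akap9.

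**Figure D3:**
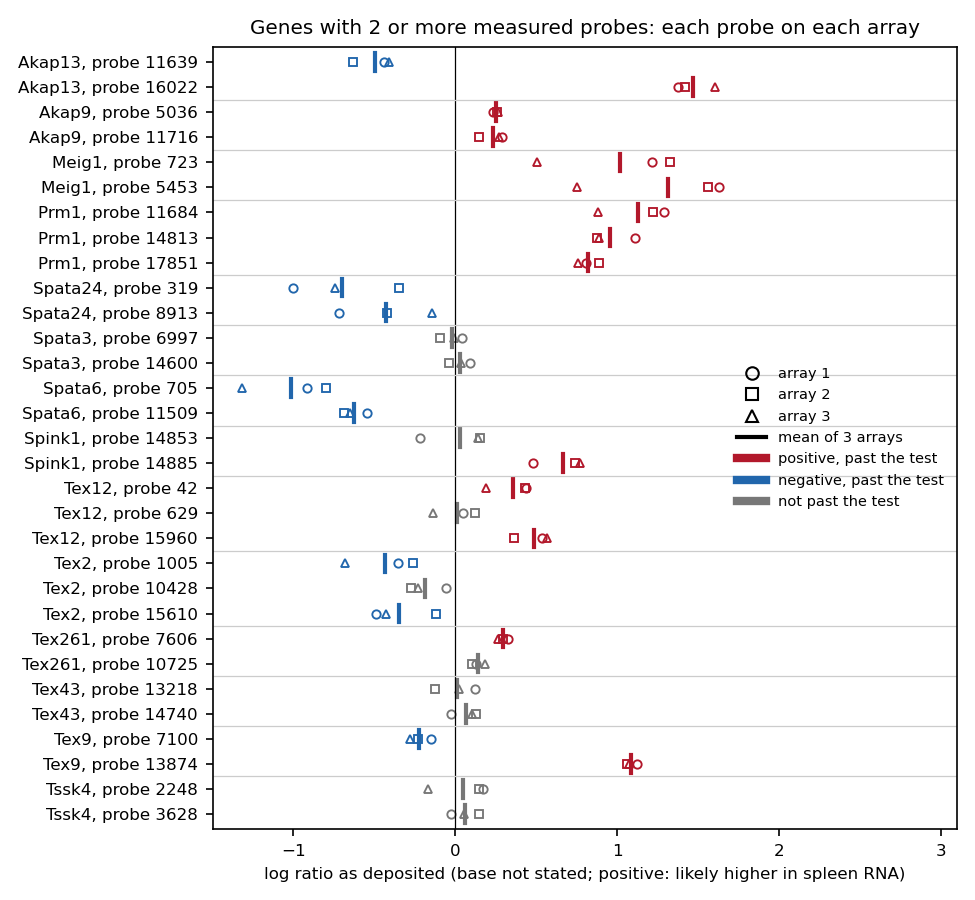
Log ratios (horizontal axis, base not stated) of each probe of the 14 genes with 2 or more measured probes, with a circle, square and triangle for arrays 1, 2 and 3 and a bar for their mean. The probes of Akap13 (-0.49 and 1.47) and Tex9 (-0.22 and 1.09) lie on opposite sides of 0, whereas the 3 probes of Prm1 lie between 0.82 and 1.13.

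The testis-specific serine kinases and the heat shock gene Hspa1l gave 1 negative gene and 4 that did not pass, beside 37.1% of all genes negative. Hspa1l, a chaperone of the Hsp70 family made mainly in spermatids, had -0.42, -0.24 and -0.27 (mean -0.31, adjusted p = 0.0049). Its call ended with the trend removed (-0.088, adjusted p = 0.197) and without moderation (0.0616). The kinases Tssk1, Tssk3, Tssk4 and Tssk5, which act late in sperm formation, had means between -0.048 and 0.053, none past the test. Tssk3 was spread from -0.45 on array 3 to 0.43 on array 2, and Tssk4 passed with the trend removed (0.20, adjusted p = 0.0119).

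The Spata, Tsga and Tex genes, most of which were named for testis expression before their function was known, split evenly. Of 31, 10 missed the test, 10 were positive and 11 negative, and their median was 0.003. These counts lie near the shares over all genes, 33.2% positive and 37.1% negative, so they are no result about the class. Tsga13 had 1.58 and 1.56 on arrays 1 and 2 and 1.06 on array 3 (adjusted p = 2.69e-05). Spata4 had 0.70, 1.10 and 0.38, with a mean of 0.72 ± 0.36 (SD, n = 3; adjusted p = 0.00172), and its call ended with 0 kept (0.0852) and without moderation (0.114). Array 3 was lowest for both, as for Meig1, Prm1 and Tnp1. Spata46, of the spermatid nuclear envelope, and Tex45 had means of 0.50 each, and Spata19, of sperm mitochondria, 0.33. On the negative side, Spata6, which helps join the sperm head to the tail, had -0.73, -0.74 and -0.99 (mean -0.82 ± 0.14, SD, n = 3; adjusted p = 6.12e-05; -0.54 with the trend removed). Spata24 had -0.86, -0.38 and -0.44 (mean -0.56, adjusted p = 0.00187; -0.33 with the trend removed). Tex37 had -0.24, -0.38 and -0.97 (mean -0.53, adjusted p = 0.0095; -0.31 without array 3 and -0.33 with the trend removed). The calls of both ended with 0 kept (0.0742 and 0.162) and without moderation (0.103 and 0.187).

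Smaller ratios in this class belonged in part to genes with housekeeping work. Tex264, a receptor for turnover of the endoplasmic reticulum, was at -0.25, and Tex2, a lipid transfer protein of that membrane, at -0.32. Tex261, which helps cargo leave the endoplasmic reticulum, was at 0.22, the smallest absolute mean that passed. Tex10, of a complex in ribosome assembly, was at 0.24 and turned negative and passed with the trend removed (-0.20, adjusted p = 0.00987). Tex101, a surface protein of germ cells, was at -0.39, Tex21 at -0.39, the calmodulin-binding Spata17 at -0.39, Spata9 at -0.38, Tex30 at -0.29, Tex22 at -0.25 and Tex33 at 0.24. The calls of Tex10, Tex21, Tex22, Tex33, Tex261 and Tex264 each ended when 1 array was left out, with adjusted p between 0.0539 and 0.154. Tex21 rests on 1 of its 3 probes, the others being at 0 on every array, and was at -0.25 without array 3 and -0.13 with 0 kept. Tex10 also has a probe at 0 throughout and was at 0.12 with 0 kept. The calls of Tex101, Tex22 and Tex33 ended with the trend removed (means -0.18, -0.074 and 0.087), and it brought Tex2 to -0.14 and Spata9 to -0.17. Without moderation the calls of Spata9 and Tex2 also ended (adjusted p = 0.0616 and 0.0745). Tex44, Tex24, Spata45, Tex35, Spata3, Tex13b, Tex43, Tex13a, Spata31d1a and Tex52 did not pass, with means from -0.26 for Tex44 to 0.17 for Tex52. Of these, Tex44 passed without array 1 (-0.36, adjusted p = 0.0325) and without array 3 (-0.29, 0.0219), and Spata31d1a without array 2 (0.28, 0.0432). Tex52 passed with arrays centred (0.19, 0.0475), and with the trend removed so did Spata31d1a (0.45, 0.0189), Spata45 (-0.29, 0.00295) and Tex13a (0.15, 0.0225).

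**Figure D4:**
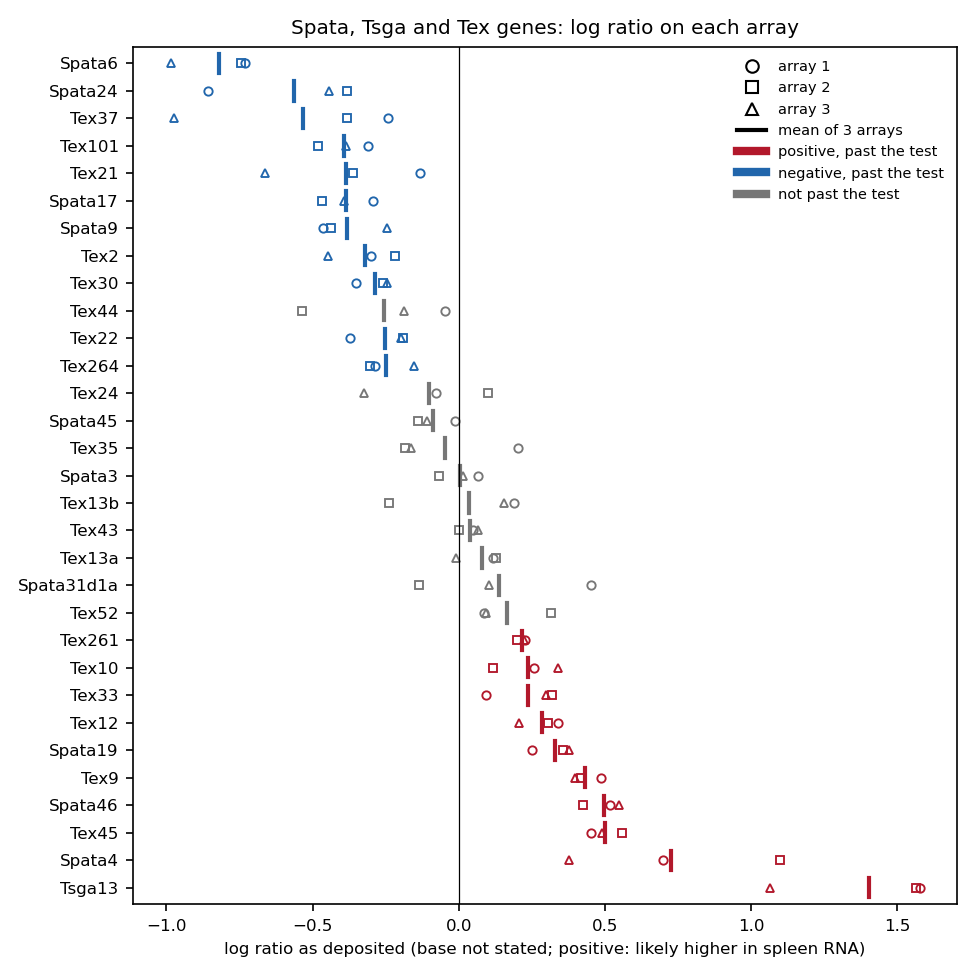
Log ratios (horizontal axis, base not stated) of the 31 measured Spata, Tsga and Tex genes, with a circle, square and triangle for arrays 1, 2 and 3 and a bar for their mean, coloured by the outcome of the test. The genes run from Spata6 at -0.82 to Tsga13 at 1.40, and 10 grey genes between -0.26 and 0.17 did not pass.

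Of the 3 Kazal inhibitor genes, 1 was positive and 2 did not pass, beside 33.2% of all genes positive. Spink1, the trypsin inhibitor that the pancreas secretes with its enzymes, had 0.13, 0.45 and 0.45 (mean 0.34 ± 0.19, SD, n = 3; adjusted p = 0.00804; 0.20 with the trend removed). Its call rests on probe 14885 (mean 0.66), while probe 14853 had -0.22, 0.15 and 0.14 (mean 0.026), and it ended with 0 kept (adjusted p = 0.0972) and without moderation (0.126). Pancreatic enzyme genes stood far higher in the same RNA: of 15 exocrine genes, 13 passed as positive and 2 missed the test, and their median was 4.04. They range from -0.14 for Cel to 5.22 for Reg2, a secreted protein of acinar cells. Their part in the ratio of Spink1 was not tested. Spink5, an inhibitor of skin proteases, and Spink12 did not pass (means 0.084 and 0.083), and Spink5 passed with the trend removed (0.17, adjusted p = 0.0141).

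Among 9 genes of the rule without a value on all arrays, Tex19.1 was listed at 0 throughout. Tex15, needed for meiotic recombination, had 2.36 on array 2 and 0 on the others. Spata2l had 0.52 and 0.33 on arrays 1 and 2, and Tex29 had -0.036 and -0.38 on arrays 1 and 3. Akap8l (0.18 on array 2), Spata5 (0.19 on array 1) and Tex48 (-0.61 on array 3) had 1 value each. A lone value has no replicate, and these genes enter no count.

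Other germ cell genes, taken from lists outside the symbol rule, were also close to 0 for the most part. Of 19 spermatid and sperm genes, 11 missed the test, 4 were positive and 4 negative, and their median was 0.037 against -0.033 over all genes. That is 21.1% in each direction, beside 33.2% of all genes positive and 37.1% negative, and the difference was not tested. The sperm head gene Zpbp2 had the highest mean (0.69; 0.32 with 0 kept), and the hyaluronidase Spam1 the lowest (-0.58; -0.38 with 0 kept, and not past the test without moderation, adjusted p = 0.0796). The activator Crem was at 0.34 (0.21 with 0 kept) and Tbpl1, a TATA-binding protein relative used in spermatids, at -0.34. The call of Crem ended without moderation (adjusted p = 0.0557). The other genes past the test were Oaz3 (0.27) and the chaperone Clgn (0.22), both positive, and Izumo1, which binds the egg (-0.32), and Pdha2 (-0.20), both negative. Clgn lost its call when array 1 (adjusted p = 0.0879) or array 3 (0.112) was left out, and Pdha2 when any 1 array was (0.0533 to 0.0942). With the trend removed the calls of Izumo1 (-0.14) and Pdha2 (-0.074) ended and Oaz3 was at 0.18, and Oaz3 missed the test without moderation (adjusted p = 0.0593). Those not past the test lay between -0.25 for Actl7b and 0.23 for Actl7a, and both passed without array 3 (-0.29 and 0.41) and with the trend removed (-0.27 and 0.53), as Actl7b did without array 1 (-0.42). Of 5 germ line RNA and stem cell genes 2 were negative, Dppa3 (-0.44) and Gmcl1 (-0.27), and Dazl and Stra8 were among the 3 that did not pass (-0.090 and 0.064). Dppa3 lost its call with the trend removed (-0.12, adjusted p = 0.0605), while Stra8 gained one (0.43, adjusted p = 9.22e-04). Gmcl1, at an adjusted p of 0.0493, lost it in most settings, without array 1 among them (-0.14, adjusted p = 0.290), and was at -0.40 without array 2.

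Recombination and cohesin genes were split. Mnd1, which helps strand exchange between paired chromosomes, was at -1.56, -1.44 and -1.46, with a mean of -1.49 ± 0.061 (SD, n = 3; adjusted p = 1.45e-06). The repair genes Atm and Rad50, which all dividing cells use, had 0.82 and -0.76, and the call of Rad50 ended without moderation (adjusted p = 0.0512). The meiotic Msh4 (0.16) and the meiotic recombinase Dmc1 (0.14) did not pass, though Msh4 passed with arrays centred (0.19, adjusted p = 0.0402) and Dmc1 with the trend removed (0.40, 0.0057). Of 4 cohesin genes of ordinary cell division, Pds5a (1.09) and Esco1 (1.02; 0.54 with the trend removed) were positive, and the ring subunits Smc3 (-0.53) and Smc1a (-0.49) negative. Smc1a had -1.11 on array 2 and about -0.2 on the others, and its call ended without array 2 (-0.18, adjusted p = 0.0579), with arrays centred (0.0510), with 0 kept (0.220), with the trend removed (0.172) and without moderation (0.308).

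Cilium genes outside the rule held large negative ratios beside values near 0. Of 12 genes listed for cilia, 5 missed the test, 6 were negative and 1 was positive (median -0.32), beside 37.1% of all genes negative. Those 5 lay between -0.22 and 0.20. The list includes transport genes of the Ift family, which are not limited to motile cilia. Efhc2, a protein of the axonemal doublets, was at -3.06 ± 0.30 (SD, n = 3; adjusted p = 6.70e-07), the transport genes Ift74 and Ift81 at -2.46 and -1.44, and the radial spoke gene Rsph1 at -1.38. The intermediate chain gene Dnaic1 was positive at 0.43 (0.80 with the trend removed). Of 10 cytoplasmic dynein and dynactin genes, which serve cargo movement along microtubules, 9 were negative and Dynll1 did not pass (median -0.68). Over all genes 37.1% were negative, and the difference was not tested. Dctn4 had -1.46, Dync2li1 -1.34, Dctn2 -0.97 and Dynlrb1 -0.88, and Dctn2 lost its call without moderation (adjusted p = 0.0690).

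Partners and neighbours of the sperm genes gave few values. Of 5 protein kinase A subunit and inhibitor genes, Pkib (1.78) and Pkig (0.47) were positive, and Prkaca (-0.93), Prkar2a (-0.31) and Pkia (-0.19) negative, the call of Prkar2a ending with 0 kept (-0.17, adjusted p = 0.0538). The call of Pkia ended with any 1 array left out (adjusted p = 0.0646 to 0.126), and it was at -0.64 with the trend removed. Of 3 measured Sertoli and Leydig cell genes, the transcription factor Sox9 was at -2.56, the cholesterol carrier Star at 1.19 (0.60 with 0 kept) and the claudin Cldn11 at 0.36. These genes are active in other tissues too.

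**Figure D5:**
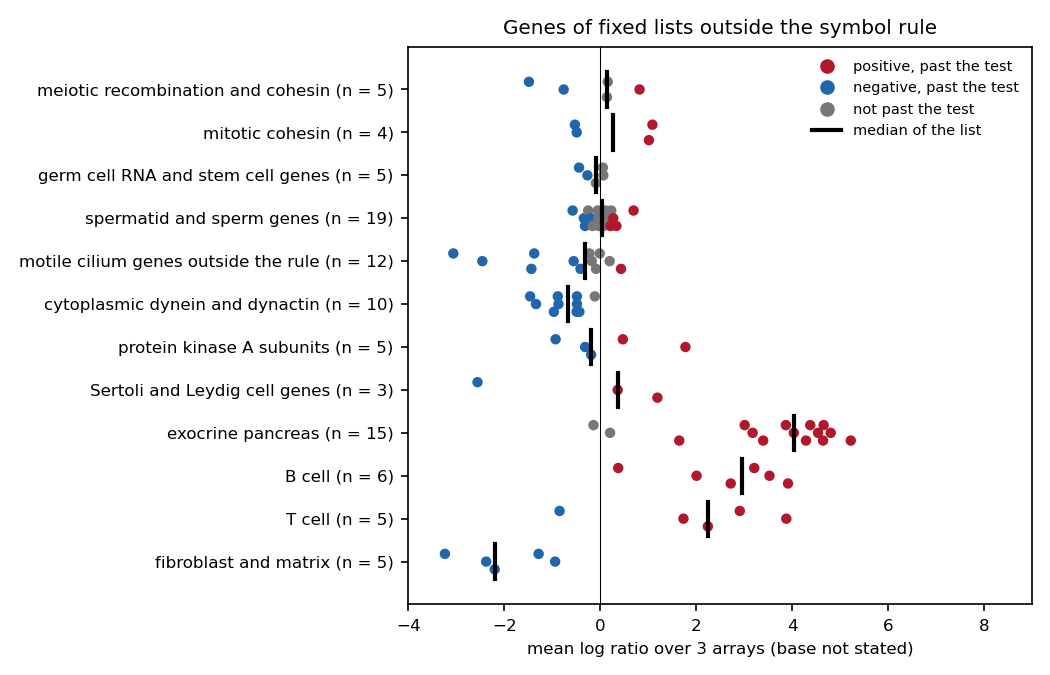
Mean log ratio over 3 arrays (horizontal axis, base not stated) of each measured gene of 12 lists outside the symbol rule, coloured by the outcome of the test, with a bar at the list median. Spermatid and sperm genes gather around 0.037, cytoplasmic dynein and dynactin genes lie at or below -0.11, and exocrine pancreas genes reach 5.22.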

How the data were processed

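The authors deposited a table of log ratios for 16273 probes on 3 two-colour arrays. How the arrays were scanned, background corrected and normalized, and in which log base, is not given in the sources used here. Exact zeros (24.2% to 26.8% of values per array) were read as no measurement. Names came from the platform annotation (12336 probes with 1 symbol, 61 with several, 3876 unnamed), and 0 symbols changed through 12228 gene IDs matched to RefSeq on GRCm38.p6. Probes measured on all 3 arrays were averaged per gene, and limma 3.58.1 (R 4.3.3) compared each mean with 0 (intercept fit, moderated variance, two-sided, Benjamini-Hochberg adjusted over 6077 genes, or over 11086 probes where a probe is named). The 3 arrays formed 1 group, and their number limits the precision. The set, its roles and the lists were chosen with earlier results of these data known. Every measured gene of the set could be named, with values per array for up to 5 per role with the largest absolute mean and for genes with opposite probes, and up to 4 genes per list. Oaz3, Clgn, Izumo1, Pdha2, Actl7a, Actl7b, Dmc1, Dnaic1, Pkia, Cel, Cd3d and Dynll1 fall outside that limit and were named after their values were seen. On simulated data with 6077 genes the fit recovered 49 of 50 genes shifted by 2, 43 of 50 by 1, 32 of 50 by 0.5 and 5 of 50 by 0.25, with 4 false calls. Only the listed genes were shifted there, while 70.3% of all genes passed on the arrays. Recovery at that share was not tested, and on the arrays a mean of 0.22 passed (Tex261, limma adjusted p = 0.0154). Other settings were centring, scaling, quantile normalization, 0 kept, probes on at least 2 arrays, the median of probes, robust or no moderation, a threshold of 0.01, a minimum change of 1.5-fold in base 2, a running median over 10 probe numbers on either side removed, each array left out, and no Akap or Spink genes. Leaving out probes numbered under 1000 was added after the data were seen. Motifs were searched in Python 3.11.15.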

Additional observations from a re-analysis of the deposited data

How the results depend on the processing

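Of 38 calls, 9 held in every setting (Syce1, Syce2, Akap1, Akap5, Akap10, Spata6, Prm1, Tnp1 and Tsga13), and 22 held when an adjusted p under 0.01, no moderation and the test against a 1.5-fold change were left out. Against a 1.5-fold change 10 of the 61 genes passed (6 positive, 4 negative) and 1208 of all genes. Without moderation 24 passed, 10 of them negative, and 2770 of all genes. With 0 kept, the means of Meig1, Spag16, Tekt2, Spag6l, Prm2, Spata4, Spata24, Tex37 and Spink1 did not change, as their probes hold no 0. Their calls changed through the shared variance and the adjustment over 7984 genes. For them this setting and that without moderation are not independent checks. The median of the set, 0.025, was -0.0047 without array 1, 0.028 without array 2 and 0.0098 without array 3, and -0.048 without the Akap and Spink families. With 1 array left out, 33 to 38 genes of the set and 3660 to 4151 of all genes passed, 15 to 20 of the set positive and 17 to 18 negative. With the trend over probe numbers removed, the call of Tex10 turned sign (-0.20), and Tekt1, which had not passed, passed with the opposite sign (0.30). That running median includes the ratios themselves and can remove real ones, and otherwise the cause was not tested. A sign change of a named gene that passed in neither setting occurred 27 times. Centring moved the median of all genes from -0.033 to -0.0047. No paired analysis was possible because the arrays form 1 group. Signal over background is unknown, so the limit of detection is too.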

Other observations

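Patterns over the arrays touched several genes of the set. Of 9 genes with a mean of at least 0.5, 7 had their lowest value on array 3, beside 36.9% of 1083 such genes on the whole array. Wider counts were less marked: 9 of the 20 positive genes were lowest there, and 37.7% of the 61, beside 29.4% of all genes. Genes of 1 array are not independent, and the differences were not tested. Probes numbered under 1000 were more widely spread than others, with a median SD over the arrays of 0.260 for 598 such probes and 0.114 for the rest. The 9 such probes of the set had a median SD of 0.296, against 0.103 for its others. They are those of Spag16, Spata4, Spata31d1a and Tex21, 2 of Tex12, and 1 each of Meig1, Spata6 and Spata24. Without probes under this number 37 of 57 genes of the set passed, 20 positive and 17 negative, beside 4176 of all 5819 genes.

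The median GC content of the 250 bases was 54.8% in positive genes (n = 19), 55.8% in negative genes (n = 16) and 52.8% in genes that did not pass (n = 17). Over all 27025 genes with a promoter, measured here or not, it was 52.4%. The median number of CG pairs was 11, 15 and 3, beside 6 over the same 27025 genes, a description of the annotated windows with no test.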
